A study of Mus musculus with 310 samples.

Results

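The 310 sorted epidermal cells of the series were divided by their reads of Slc2a1, the gene of the glucose transporter Glut1, and the 2 sides were compared within each plate. A cell was called Slc2a1-positive when Slc2a1 reached at least 50 CPM, the count of a gene scaled to the total reads of its cell, and Slc2a1-negative when its Slc2a1 count was 0. By this rule 85 of 310 cells (27.4%) were positive and 171 (55.2%) were negative. The other 54 cells (17.4%) had some Slc2a1 reads but fewer than 50 CPM and were left out of the comparison. The division says how much Slc2a1 messenger RNA was read in a cell, and not how much Glut1 protein was on its surface.

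All cells came from tail skin of mice of a mixed CBA C57BL/6 strain that carried the alleles Lrig1-EGFP-ires-CreERT2 and Rosa26-fl/STOP/fl-tdTomato and received hydroxytamoxifen once on the skin. Lrig1, which drives Cre there, is expressed by junctional zone stem cells of hair follicles, so tdTomato marks cells that expressed Lrig1 and their progeny. By their labels 145 cells belonged to 38w (replicates RepI and RepL) and 165 to 38wUW (RepM and RepN). The time was 38 weeks for all cells of both groups, which the study profiled as aged skin. The labels do not spell out UW or say which group had been wounded, so the groups are given by these names only. RepI lay on plates C114 and C118, RepL on C119, RepM on C128 and RepN on C129, which makes 5 plates but 4 replicates, and the labels do not say how many mice a replicate stands for.

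Glut1 carries glucose into the cell along its gradient. It is the main glucose transporter of basal keratinocytes, the cells that sit on the basement membrane, divide and feed the layers above. Once inside, glucose is held by hexokinase and broken down by the glycolytic enzymes to pyruvate, which enters mitochondria or is turned into lactate by lactate dehydrogenase. Transcription of Slc2a1 and of many glycolytic genes is raised by Hif1a, the subunit of the hypoxia-inducible factor that is stabilised when oxygen is low. The study uses Glut1 as a mark of glycolytic cells that were primed by an earlier wound.

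The Slc2a1 promoter is shown because these reads chose the sides, and that of Ldha because lactate dehydrogenase A is the glycolytic enzyme with the lowest p below. Each runs from 250 bases before the RefSeq start to 50 bases after it (build GRCm38.p6, both on the + strand). Slc2a1 is at chr4:119108495-119108794 and Ldha at chr7:46845554-46845853, the first of 2 Ldha starts in the table. Capitals mark ACGTG and GCGTG, the core letters of hypoxia response elements, on either strand (CACGT and CACGC when read on the strand shown).
Slc2a1: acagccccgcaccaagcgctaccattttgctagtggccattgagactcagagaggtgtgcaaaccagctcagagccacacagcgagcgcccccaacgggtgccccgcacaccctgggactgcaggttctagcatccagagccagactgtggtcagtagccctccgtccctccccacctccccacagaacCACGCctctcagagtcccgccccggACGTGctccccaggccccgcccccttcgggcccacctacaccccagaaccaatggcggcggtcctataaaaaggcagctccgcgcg
Ldha: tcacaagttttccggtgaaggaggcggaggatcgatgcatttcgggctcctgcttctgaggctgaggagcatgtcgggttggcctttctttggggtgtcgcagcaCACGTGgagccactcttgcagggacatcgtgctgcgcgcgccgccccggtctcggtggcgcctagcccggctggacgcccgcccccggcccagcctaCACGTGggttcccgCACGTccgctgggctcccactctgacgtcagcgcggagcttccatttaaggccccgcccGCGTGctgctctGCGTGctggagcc

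The Slc2a1 window held 2 matches, which begin 36 and 61 bases before the start. The Ldha window held 5 separate stretches, 2 of them CACGTG, which matches on both strands and is also an E-box. Of 32851 promoter windows of this length, 14380 (43.8%) held at least 1 match, so a match by itself sets no gene apart. Among the glycolysis enzymes 10 of 15 promoters had one, and 17 of 22 among the genes of the hypoxia response list. These are matches of letters, and whether a factor binds them was not measured.

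The sides were chosen from Slc2a1, so its levels describe the choice and were not tested. Positive cells had 55.5 to 685 CPM of Slc2a1 with a median of 146, and cells left between the sides had 2.54 to 49.5 CPM with a median of 22. Near the threshold, 13 cells lay between 40 and 50 CPM and 2 positive cells between 50 and 60. Of the 85 positive cells, 3 rested on 1 Slc2a1 read and 22 on fewer than 5 reads. The median Slc2a1 level of positive cells was 109 CPM on C114, 204 on C118, 227 on C119, 153 on C128 and 136 on C129, so the plates overlapped widely.

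The depth of a cell set how well its side was known. Total reads per cell ranged from 11711 to 721564, and 85 of the 171 negative cells and 42 of the 85 positive cells had under 60000, where 50 CPM is fewer than 3 reads. A count of 0 in such a cell allows a Slc2a1 level above the threshold, so negative means no read at this depth. The sides had near equal depth as a whole (median 61396 reads in positive and 60226 in negative cells) but not within plates. The median was 118565 reads against 94876 on C114, 49820 against 67940 on C118, 58982 against 37874 on C119, 40479 against 52692 on C128 and 96480 against 81422 on C129, each time positive first. When each cell was thinned to 20000 reads, 72 of the positive and 151 of the negative cells could be kept, and 6 of these positive cells lost their last Slc2a1 read.

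**Figure D1:**
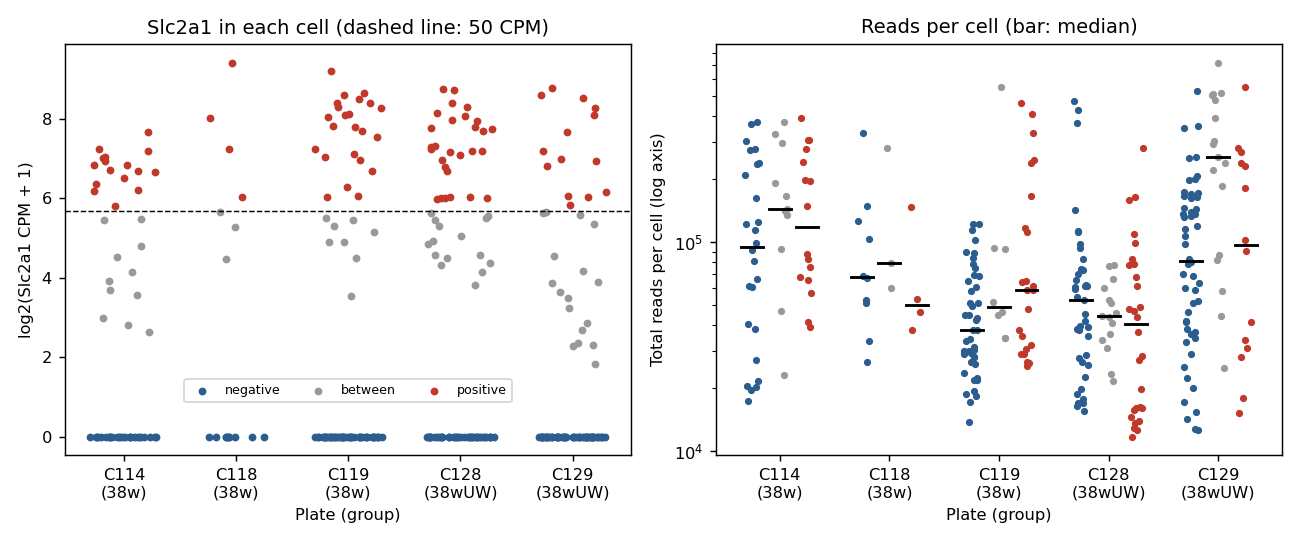
Left, the Slc2a1 level of each cell as log2(CPM + 1) by plate, with the threshold of 50 CPM as a dashed line. Right, total reads per cell on a log axis with the median of each side as a bar, where positive cells had more reads at the median than negative cells on C114, C119 and C129 and fewer on C118 and C128.

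The share of Slc2a1-positive cells did not separate the groups. It was 28.6% (20 of 70 cells, Wilson 95% interval 19.3 to 40.1) in RepI and 30.7% (23 of 75, 21.4 to 41.8) in RepL of 38w. In 38wUW it was 34.1% (28 of 82, 24.8 to 44.9) in RepM, the highest of all, and 16.9% (14 of 83, 10.3 to 26.3) in RepN, the lowest. The means were 29.6% ± 1.48 (SD, n = 2) and 25.5% ± 12.2 (SD, n = 2), a difference of 4.11 percentage points (exact two-sided permutation test over 4 replicates, p = 1, where the smallest possible p is 0.33). Without RepN the difference was -4.53 points, so its direction rested on that replicate. Within RepI the share was 30.2% on C114 and 23.5% on C118, where only 4 cells were positive. The intervals cover counting error only, since they treat cells as independent draws and leave out the spread between replicates.

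Slc2a1-positive cells were most often basal by their markers. Each cell was given the class whose marker genes had the highest mean z-score over the 310 cells, out of 7 classes, and for 36 cells the best 2 classes lay within 0.1 of each other. Basal cells, marked by genes such as Krt5, Krt14, Col17a1 and Itga6, took 43.8% of positive and 11.5% of negative cells on C114. The shares were 50% and 10% on plate C118 and 56.5% and 31.8% on plate C119. On the 38wUW plates they took 50% and 15.4% on C128, and 21.4% and 17.3% on C129. The basal share was thus higher on the positive side in 5 of 5 plates, by 27.1 points ± 14.0 (SD, n = 5 plates), and least so on C129. The exact sign-flip permutation test over 5 plates gave p = 0.062, the smallest it can give, and 0.188 after Benjamini-Hochberg adjustment over the 9 properties compared, so no property could pass 0.05.

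The classes that lie above the basal layer showed the opposite order. Tail scale cells, whose keratins Krt36 and Krt84 also build hard appendages, took 0% of positive and 23.1% of negative cells on C114, 0% and 50% on plate C118, 13% and 25% on plate C119, 0% and 2.56% on C128, and 0% and 5.77% on C129. Interfollicular differentiated cells, marked by Krt1 and Krt10 of the suprabasal epidermis, took 18.8% and 23.1% on C114, 0% and 20% on plate C118, 0% and 9.09% on plate C119, 7.14% and 7.69% on C128, and 0% and 7.69% on C129. Both were lower on the positive side in 5 of 5 plates (exact permutation p = 0.062, adjusted p = 0.188, n = 5 plates each). The shares of a side add up to 100%, so a higher basal share lowers the others.

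No such order held for the follicle classes. The share of bulge cells, a class named for the stem cells of the lower follicle, was higher on the positive side in 3 plates and lower in 2. Markers of this class include Postn, which the study uses as a marker of the infundibulum, so not all cells of the class need be bulge cells. The bulge gene Cd34 was read in 3.53% of all positive and 12.3% of all negative cells, and its share within the class was not computed. The share of junctional zone cells was higher in 3 plates and lower in 1. The share of sebaceous gland cells was lower in 4 of 5 plates and that of infundibular and duct differentiated cells in 3 of 5. On C129 bulge cells took 50% of positive and 25% of negative cells and junctional zone cells 28.6% and 11.5%, so positive cells of that plate were mostly of these 2 classes.

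**Figure D2:**
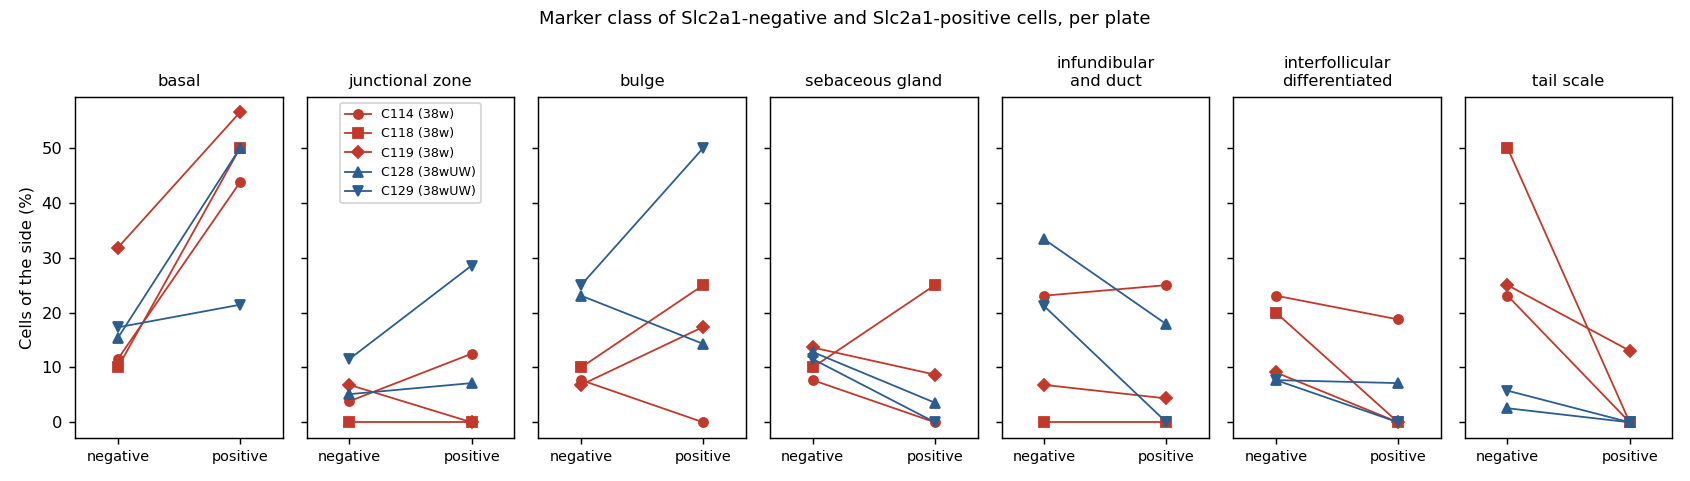
Share of the cells of each side in each of 7 marker classes, in percent, with 1 line per plate joining the Slc2a1-negative to the Slc2a1-positive cells (red 38w, blue 38wUW). The basal share is higher at the positive end of all 5 lines, with the smallest gap on C129, and the interfollicular differentiated and tail scale shares are lower there on all 5.

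Seen from the classes, 39 of 88 basal cells were positive (44.3%), against 16 of 49 bulge cells (32.7%), 8 of 25 junctional zone cells (32%) and 10 of 55 infundibular and duct differentiated cells (18.2%). The share was 16.1% of interfollicular differentiated cells (5 of 31), 13.3% of sebaceous gland cells (4 of 30) and 9.38% of tail scale cells (3 of 32). Among positive cells the median Slc2a1 level was 205 CPM in the 39 basal cells, 142 CPM in the 16 bulge cells and 112 CPM in the 10 infundibular and duct differentiated cells. Their ranges overlapped, from 64.7 to 685 CPM in basal and from 63.6 to 270 CPM in infundibular and duct differentiated cells. These counts pool cells over plates and are a description.

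The mitochondrial and ribosomal shares of reads showed no stable order. The median mitochondrial share of reads was 3.17% in positive and 2.48% in negative cells on C114, 38.6% and 28.7% on plate C118, 13.4% and 8.58% on plate C119, 13.7% and 14.4% on C128, and 18.2% and 17.7% on C129. It was higher in 4 of 5 plates, by 3.06 points ± 4.38 (SD, n = 5; exact permutation p = 0.188, adjusted 0.422). The ribosomal protein share differed by -0.14 points ± 0.93 (SD, n = 5; exact permutation p = 0.75), while between plates it ran from 2.78% to 28.8%. The plates therefore differed far more from each other than the sides did.

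To compare genes, reads were summed over the cells of each side on each plate, which gave 10 sums of 4 to 52 cells and 284879 to 5911756 reads. The positive sum of C118, with 4 cells, was the smallest. edgeR's quasi-likelihood test with plate as a term called 0 of 8435 tested genes different (0%, Benjamini-Hochberg adjusted p under 0.05), with a smallest adjusted p of 0.999. Taken without adjustment, 116 genes were higher in positive cells at p under 0.05 (1.38% of those tested) and 198 were lower (2.35%), in all 314 genes or 3.72%. Higher in the positive sum of all 5 plates were 216 genes (2.56%), and lower in all 5 were 351 (4.16%). Over all tested genes the log2 fold change had a median of -0.14. DESeq2 called 25 genes on the same sums, 9 higher and 16 lower, with 799 at an unadjusted p under 0.05. No p given below for a gene passed the adjusted threshold of edgeR or limma, and the counts of lists are to be read against these percentages. Levels are CPM of the sums, and the order of the sides on a plate is that after TMM scaling.

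Basal keratinocyte genes were the group that leaned most clearly to the positive side. All 8 tested basal markers had a log2 fold change above 0, with a median of 0.97, 5 of the 8 had an unadjusted p under 0.05 and 3 were higher in all 5 plates. The list's median was 0.63, 1.53, 0.88, 0.98 and 1.11 on C114, C118, C119, C128 and C129, so it was above 0 on every plate. These genes also set the basal class above, so the list and the class share are 1 observation and not 2.

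Col17a1 (chromosome 19, 47646344 to 47692094 in GRCm38), the hemidesmosome collagen that ties basal cells to the basement membrane, was at 788, 316, 812, 371 and 742 CPM in the positive sums of C114, C118, C119, C128 and C129. In the negative sums, in the same order of plates, it was at 440, 127, 457, 247 and 312 CPM. Every plate was higher on its positive side, although the levels of the sides overlapped between plates. The log2 fold change was 0.98 (SE 0.31, edgeR p = 0.00838). After thinning, 86.1% of positive and 68.9% of negative cells had a Col17a1 read.

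Krt5 (chromosome 15, 101707070 to 101712898), the type II keratin of basal cells, was at 2593, 497, 999, 733 and 1100 CPM in the positive and 1554, 706, 998, 339 and 288 CPM in the negative sums. It was higher on 4 plates, lower on C118, and on C119 the sides were level (log2 fold change 0.67, SE 0.38, edgeR p = 0.101). Krt14 (chromosome 11, 100203162 to 100207548), its partner, was at 20330, 2140, 4592, 3020 and 359 CPM against 21661, 590, 5625, 1069 and 909 CPM, higher on 2 plates and lower on 3. Its level differed far more between plates than between sides, and its log2 fold change was 0.34 (SE 0.39, edgeR p = 0.407). With equal weight per cell the difference in mean log2(reads + 1) was 1.13 for Krt5 (limma p = 0.000154) and 1.01 for Krt14 (limma p = 0.00488), neither past the adjusted threshold. In the sums, 1 cell held 75.2% of the Krt5 reads on the positive side of C129, and 1 cell held 93.6% on the negative side of C118.

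Itga6 (chromosome 2, 71745616 to 71858416), the integrin of hemidesmosomes, was at 94.3, 182, 543, 257 and 244 CPM in the positive and 37.1, 197, 155, 124 and 163 CPM in the negative sums. It was higher on every plate but C118 (log2 fold change 0.96, SE 0.42, edgeR p = 0.0408). Dst (chromosome 1, 33908225 to 34308661), which links hemidesmosomes to keratin filaments, was at 232, 586, 918, 322 and 1992 CPM against 150, 166, 527, 263 and 433 CPM, higher on all 5 plates (log2 fold change 1.16, SE 0.38, edgeR p = 0.0105). The other members are named after their values were seen. They are Cav1, the coat protein of caveolae (1.43, edgeR p = 0.00463), Trp63, the transcription factor of the basal layer (0.95, edgeR p = 0.0152), and Itgb4, the partner of Itga6 (1.21, edgeR p = 0.111), each as a log2 fold change.

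The genes of matrix and adhesion shared this lean, with 18 of 20 above 0, a median log2 fold change of 0.52 and 3 at an unadjusted p under 0.05, the same Col17a1, Dst and Itga6. Cd44, the hyaluronan receptor and the most abundant of the list, was at 168, 330, 179, 1044 and 936 CPM in the positive and 183, 1394, 251, 525 and 760 CPM in the negative sums, lower on the 38w plates and higher on the 38wUW plates (log2 fold change -0.22, SE 0.43, edgeR p = 0.614). In actin cytoskeleton genes 13 of 24 were above 0 with a median of 0.07, and none had an unadjusted p under 0.05. Actb was at 4856, 521, 721, 1452 and 874 CPM against 4729, 334, 1240, 1128 and 811 CPM, with plates on both sides of 0 (log2 fold change 0.09, SE 0.27, edgeR p = 0.730).

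Markers of the suprabasal layers leaned to the negative side. All 8 tested interfollicular differentiated markers were below 0, with a median log2 fold change of -1.61, and 5 of 8 had an unadjusted p under 0.05. Krt10 (chromosome 11, 99385254 to 99389364), the type I keratin made once a cell leaves the basal layer, was at 5358, 326, 1110, 1614 and 16.6 CPM in the positive and 4177, 13012, 4390, 5333 and 3774 CPM in the negative sums. It was lower on 4 plates and higher on C114 (log2 fold change -3.01, SE 1.0, edgeR p = 0.0111). Few cells carry such values: 1 cell held 81.5% of the Krt10 reads of the negative sum of C128 and 69.5% of that of C114.

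Calm4, a calmodulin-like protein of differentiating epidermis, was at 2402, 17.5, 137, 273 and 6.16 CPM against 2898, 263, 331, 667 and 518 CPM, lower on all 5 plates (log2 fold change -2.29, SE 0.74, edgeR p = 0.00949). Krtdap, a secreted protein of the same layers, was at 7049, 361, 560, 723 and 2027 CPM against 11981, 3551, 1038, 1270 and 1878 CPM, lower on all but C129 (-1.05, SE 0.42, edgeR p = 0.0288). Mt4, the metallothionein of stratified epithelia, was at 3891, 123, 294, 66.5 and 0 CPM against 5106, 1862, 545, 31.5 and 35.2 CPM (-1.65, SE 0.87, edgeR p = 0.0815). The median of the list was -0.31 on C114, -4.12 on C118, -1.02 on C119, -0.59 on C128 and -3.03 on C129, so the sides were closest on C114 and C128.

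Krt2 (chromosome 15, 101810689 to 101818169), a late keratin of tail scale and upper epidermis, was the gene with the lowest p among those lower on all plates. It was at 2500, 179, 271, 107 and 0 CPM in the positive and 6422, 8125, 2504, 357 and 127 CPM in the negative sums (log2 fold change -3.56, SE 0.83, edgeR p = 0.00105). After thinning, 22.2% of positive and 27.2% of negative cells had a Krt2 read, so the sums differed more than the share of cells with a read. Krt36, the other tested tail scale keratin, was at 0 CPM in the positive sums of C114 and C118 against 19233 and 723 CPM, at 975 against 2828 CPM on C119, at 12.9 against 3.82 CPM on C128 and at 0 on both sides of C129 (edgeR p = 0.135).

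**Figure D3:**
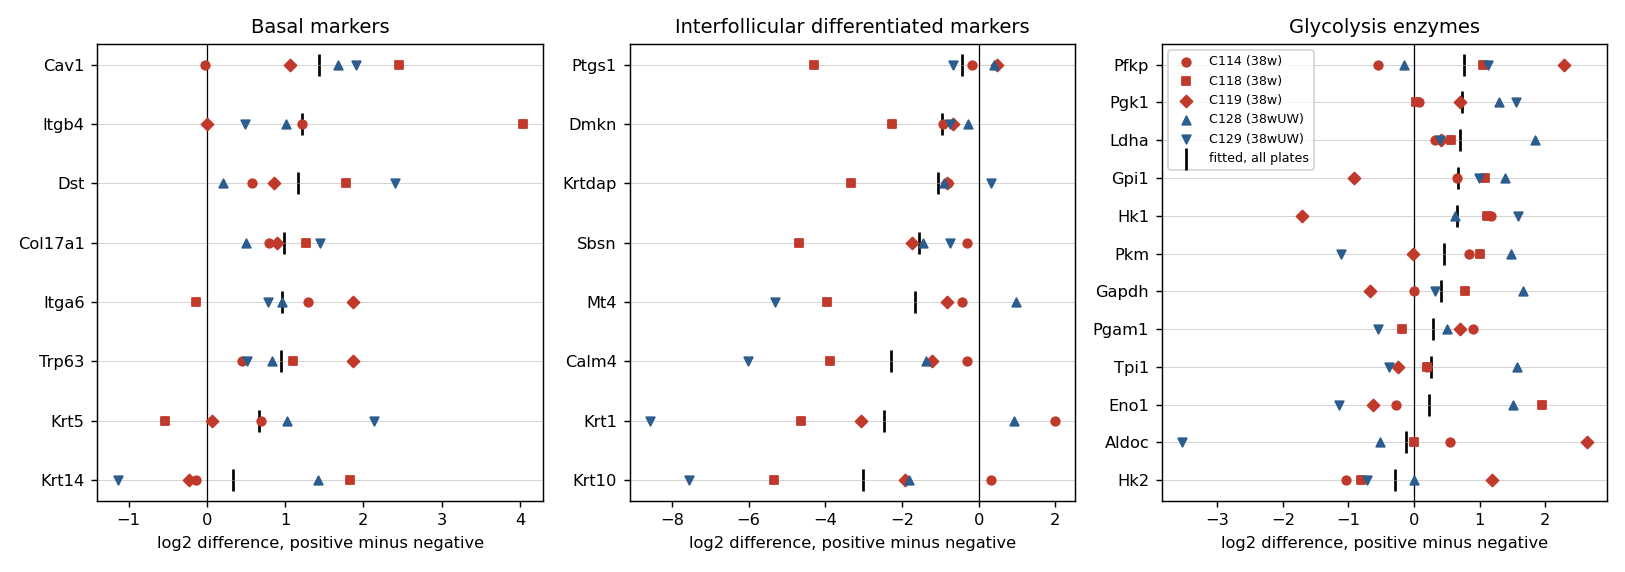
Log2 difference between the positive and the negative sum of each plate for the tested basal markers, interfollicular differentiated markers and glycolysis enzymes, with the fitted value over all plates as a bar. All 8 fitted values lie above 0 for basal markers and below 0 for interfollicular differentiated markers, and 10 of 12 lie above 0 for glycolysis enzymes, with plates on both sides of 0 for most genes.

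Infundibular and duct markers had 8 of 9 fold changes below 0 (median -1.93, 1 at an unadjusted p under 0.05), but not on C114, where the median of the list was 1.66. Krt79 (chromosome 15, 101929332 to 101940324), a keratin of the upper follicle and its ducts, was at 6590, 7.02, 418, 2852 and 14.7 CPM in the positive and 4951, 388, 820, 3975 and 2582 CPM in the negative sums (log2 fold change -2.16, SE 1.04, edgeR p = 0.0599). Cst6, a protease inhibitor of the same cells, was at 75257, 0, 3006, 4491 and 52.6 CPM against 30848, 762, 1400, 21908 and 5356 CPM, higher on C114 and C119 and lower on the other plates (-2.43, SE 1.45, edgeR p = 0.120).

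Sebaceous gland markers had 8 of 8 fold changes below 0 (median -1.49, 1 at an unadjusted p under 0.05). Scd1, the desaturase of sebocyte lipids, was at 43.5, 397, 65.1, 75.1 and 42.6 CPM against 28.1, 313, 427, 64.6 and 436 CPM, with plates on both sides of 0 (log2 fold change -0.89, SE 0.67, edgeR p = 0.205). Elovl4, which lengthens fatty acids of the skin barrier, was at 59.9, 0, 70.7, 63.4 and 0 CPM against 50.3, 261, 118.9, 564 and 150 CPM (-3.22, SE 1.33, edgeR p = 0.0324).

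Bulge and junctional zone markers lay on both sides of 0, with medians of 0.19 (4 of 6 above 0) and 0.36 (3 of 5) and none at an unadjusted p under 0.05. Krt15, a keratin of bulge and basal cells, was at 656, 621, 504, 555 and 1335 CPM against 1135, 34.6, 395, 637 and 463 CPM (log2 fold change 0.88, SE 0.63, edgeR p = 0.183). Lrig1, the gene that drives the label, was at 68.8, 31.6, 2.95, 72.7 and 94.3 CPM against 19.3, 36.6, 8.43, 40.6 and 69.6 CPM (log2 fold change 0.36, SE 0.68, edgeR p = 0.607). Cd34, a bulge surface protein, had too few reads to be tested, with 0 CPM in the positive sums of every plate but C129 and at most 42.5 CPM in the negative sums.

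Glycolysis enzymes were on the whole a little higher in Slc2a1-positive cells, with 10 of 12 above 0 and a median log2 fold change of 0.43, against 42.2% above 0 and a median of -0.14 over all genes. None had an unadjusted p under 0.05. The median of the list was 0.26, 0.67, 0.20, 1.34 and -0.03 on C114, C118, C119, C128 and C129, so C128 carried the largest part and C129 none.

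Ldha (chromosome 7, 46841475 to 46855627), whose promoter is printed above, was at 1115, 625, 611, 819 and 441 CPM in the positive and 863, 411, 481, 216 and 383 CPM in the negative sums. It was higher on all 5 plates, most on C128 (log2 fold change 0.70, SE 0.33, edgeR p = 0.0538). Pgk1, which makes the first ATP of glycolysis, was at 206, 179, 134, 186 and 171 CPM against 189, 171, 86.6, 71.3 and 66.5 CPM, also higher on all 5 (0.74, SE 0.44, edgeR p = 0.121). On C114 and C118 its sides were nearly level. In its positive sums 1 cell held 88.2% of the reads on C118 and 1 cell 83.1% on C129.

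Gapdh, the dehydrogenase in the middle of the pathway, was at 1872, 133, 199, 469 and 130 CPM against 1820, 76.3, 331, 140 and 120 CPM (log2 fold change 0.41, SE 0.37, edgeR p = 0.294). Eno1, enolase, was at 448, 48.3, 53.5, 153 and 9.35 CPM against 523, 11.9, 86.4, 50.5 and 25.1 CPM (0.23, SE 0.56, edgeR p = 0.688). Pkm (chromosome 9, 59656368 to 59679375), the pyruvate kinase that ends the pathway, was at 440, 84.2, 123, 158 and 15.2 CPM against 238, 40.5, 130, 53.2 and 38.9 CPM (log2 fold change 0.46, SE 0.50, edgeR p = 0.383). In the positive sum Gapdh was lower on C119 and level on C114, Eno1 was lower on C114, C119 and C129, and Pkm was lower on C129 and level on C119. Hk2, a hexokinase, which is named after its value was seen, had a log2 fold change of -0.29 (edgeR p = 0.700).

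Of the other transporters of glucose, lactate and pyruvate, 5 of 8 were above 0, with a median of 0.58. With equal weight per cell, an alternative described below, 7 of 7 were above 0, against 3550 of 6985 over all genes of that fit. Mpc1 and Mpc2 were at an unadjusted p under 0.05 there. Bsg, the chaperone of lactate transporters, was at 340, 59.7, 52.3, 117 and 117 CPM against 196, 31.6, 83.3, 71.0 and 84.1 CPM, higher on all but C119 (log2 fold change 0.47, SE 0.45, edgeR p = 0.322). Slc16a1, the lactate transporter Mct1, was at 19.7, 28.1, 14.4, 12.3 and 159 CPM against 1.15, 4.94, 52.0, 25.5 and 49.6 CPM (1.05, SE 1.04, edgeR p = 0.332), and 1 cell held 90.2% of its reads in the positive sum of C129. Mpc1, a subunit of the mitochondrial pyruvate carrier, was at 117, 228, 137, 222 and 221 CPM against 86.6, 148, 107, 96.8 and 103 CPM, higher on all 5 plates (0.76, SE 0.42, edgeR p = 0.091). On C118 1 cell held 93.8% of the Mpc1 reads of the positive sum and 1 cell 73.3% of those of the negative sum. Slc7a5, a carrier of large amino acids, was not tested, with at most 18.9 CPM in any sum.

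The proteins that move and remove Glut1 were divided evenly, 7 of 14 above 0 with a median of -0.06. Txnip, an arrestin-like protein that takes Glut1 off the surface, was at 21.6, 94.7, 58.2, 51.1 and 111 CPM against 11.2, 20.7, 53.8, 134 and 68.7 CPM (log2 fold change 0.54, SE 0.66, edgeR p = 0.428). Vps35, the retromer subunit that returns Glut1 to the surface, was at 62.6, 303, 249, 521 and 472 CPM against 41.6, 353, 168, 339 and 405 CPM (0.38, SE 0.34, edgeR p = 0.295). Pentose phosphate and glycogen genes had 8 of 13 above 0 (median 0.34), and the median reached no more than 0.24 on any plate.

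The hypoxia response list had 9 of 20 above 0 in the sums, with a median of -0.03. With equal weight per cell it had 14 of 18 above 0, against 3550 of 6985 over all genes of that fit. Its median was then 0.10, with 3 higher at an unadjusted p under 0.05. Hif1a (chromosome 12, 73901375 to 73947530) was at 15.9, 291, 200, 279 and 201 CPM in the positive and 14.95, 111, 86.1, 58.7 and 120 CPM in the negative sums. It was higher on all 5 plates, although level on C114 (log2 fold change 1.17, SE 0.47, edgeR p = 0.0291). In its positive sums 1 cell held 69.9% of the Hif1a reads on C118 and 1 cell 63.4% on C128. With equal weight per cell the difference for Hif1a was 0.29 (limma p = 0.0786). Higd1a, a mitochondrial protein induced by hypoxia, was at 320, 565, 622, 191 and 209 CPM against 290, 342, 66.9, 64.0 and 169 CPM, higher on all 5 (1.16, SE 0.49, edgeR p = 0.034). Here too 1 cell held 76.4% of the reads of the positive sum on C118 and 1 cell 67.3% on C119. Bnip3l, a receptor for the removal of mitochondria, was at 111, 997, 89.5, 224 and 299 CPM against 75.6, 457, 205, 239 and 472 CPM, higher on 2 plates and lower on 3 (-0.04, SE 0.40, edgeR p = 0.929). Hif1an, the hydroxylase that inhibits Hif1a, is named after its value was seen, and was lower on all 5 plates (-2.84, edgeR p = 0.00901). With equal weight per cell Hif1an was at -0.099 (limma p = 0.266).

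Respiratory genes encoded in the nucleus were centred on 0, with 22 of 48 above it and a median of -0.01. Those encoded in mitochondria had 12 of 13 above 0 with a median of 0.22 and 1 at an unadjusted p under 0.05. The list median was -0.34, 0.009, 0.98, 0.07 and 0.19 on C114, C118, C119, C128 and C129, so it was largest on C119. These 13 genes also make up the mitochondrial share above, so the list and that share are 1 observation and not 2. Their most abundant member, mt-Co3, was at 23591, 260750, 87274, 127890 and 138140 CPM against 35454, 155150, 41379, 130990 and 138760 CPM, so its order changed with the plate, as did that of the mitochondrial share above. Tricarboxylic acid cycle genes had 9 of 17 above 0 (median 0.01), and amino acid transport and mTORC1 genes 7 of 15 (median -0.04).

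Cell cycle genes had 16 of 21 above 0 with a median of 0.40, and 1 at an unadjusted p under 0.05. The list median was 2.46 on C129 and 1.03 on C119, but -0.19, 0.00 and -0.20 on C114, C118 and C128, so this lean came from 2 plates of different groups. Pcna, the clamp of DNA replication, was at 223, 63.2, 196, 178 and 99.9 CPM against 178, 628, 114.2, 121 and 353 CPM, with a log2 fold change of -0.56 (SE 0.63, edgeR p = 0.389).

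Early response and stress genes had 7 of 18 above 0 (median -0.21). Hspb1 (chromosome 5, 135887919 to 135889563), a small heat shock protein of differentiating keratinocytes, was at 805, 21.1, 106, 110 and 59.7 CPM against 1765, 212, 212, 311 and 205 CPM, lower on all 5 plates (log2 fold change -1.65, SE 0.39, edgeR p = 0.00126). Fos, an immediate early gene that also responds to dissociation, was at 589, 2355, 1298, 1256 and 1810 CPM against 755, 402, 835, 2329 and 2636 CPM, with no common order (0.24, SE 0.45, edgeR p = 0.608).

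Of the keratins and secreted proteins of wounds, 3 of 7 were above 0 (median -0.26). Krt6a (chromosome 15, 101689910 to 101694307), the repair keratin, was at 402, 149, 53.6, 136 and 596 CPM in the positive and 233, 275, 271, 121 and 113 CPM in the negative sums. It was higher on 3 plates and lower on 2 (log2 fold change 0.03, SE 0.65, edgeR p = 0.960), and its level is uncertain because the nearly identical gene Krt6b can take part of its reads. Tgfbi, a matrix protein induced by TGF-beta, was at 390, 197, 287, 198 and 366 CPM against 232, 84.1, 185, 66.8 and 176 CPM, higher on all 5 plates (1.06, SE 0.36, edgeR p = 0.0131). Ly6a, which encodes Sca-1, was at 900, 316, 110, 40.02 and 7.58 CPM against 379, 90.9, 97.5, 40.1 and 69.0 CPM (0.17, SE 0.63, edgeR p = 0.788).

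The study names a Transition Cluster, cells placed between stem and differentiated states in repair. Its markers had 72 of 93 above 0 with a median log2 fold change of 0.46. Of the 93, 12 were higher and 2 lower at an unadjusted p under 0.05, against the 1.38% and 2.35% of all genes, and 11 were higher on all 5 plates. The list is not independent of those above: 6 of its 99 genes are among the 8 basal markers, 6 are glycolysis enzymes and 9 are matrix and adhesion genes, and 53 are in another list. The study made it on other samples, from a cluster in which Slc2a1 was itself a marker. Its cell plasticity genes, chosen by the study for induction in repair, had 142 of 294 above 0 with a median of -0.02.

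**Figure D4:**
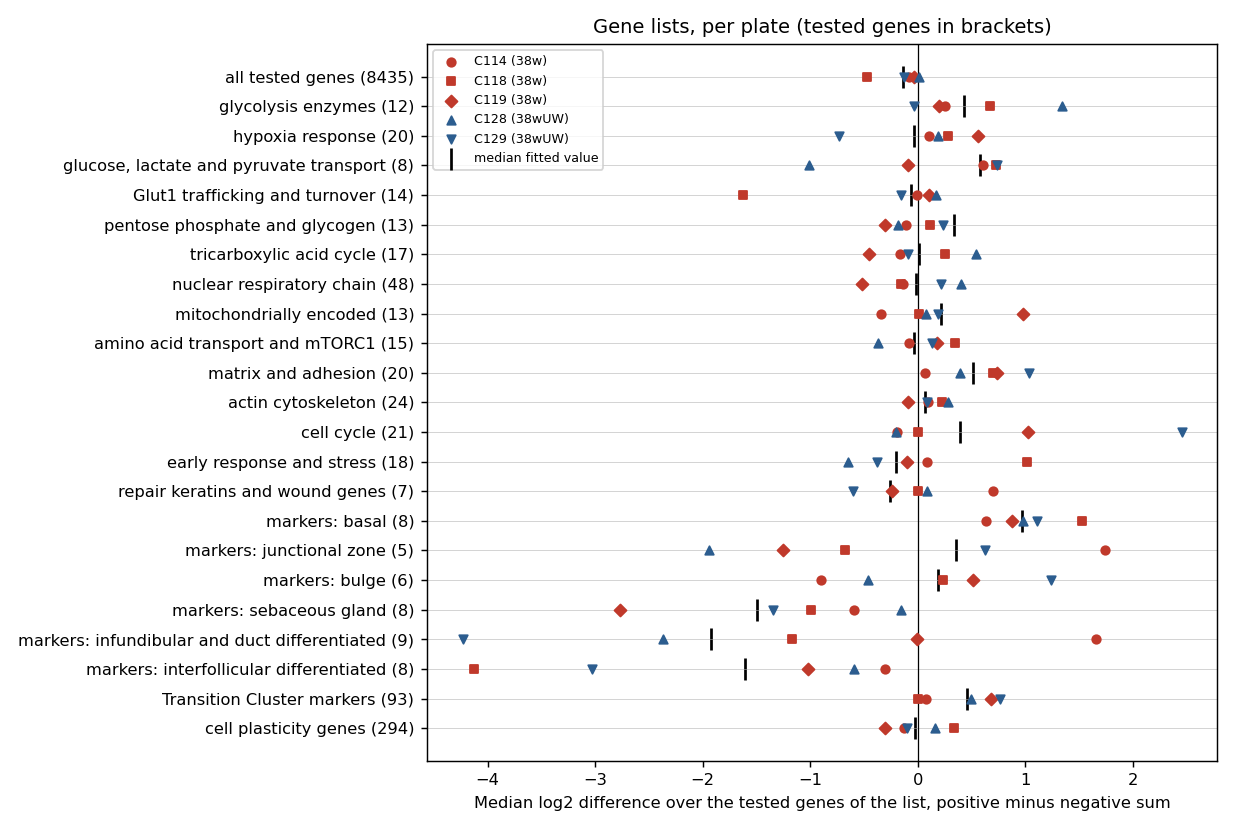
Median log2 difference between the positive and negative sums over the tested genes of each list, with 1 point per plate (red 38w, blue 38wUW) and a bar at the median of the fitted values. Basal markers are above 0 on all 5 plates, at 0.63 to 1.53, and interfollicular differentiated and sebaceous gland markers below 0 on all 5, whereas most metabolic lists have plates on both sides of 0.

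When the sides were compared within a plate and a marker class, using 12 combinations with at least 3 cells on each side (170 cells), edgeR called 0 of 3601 genes. Plate C118 had no such combination, so this fit differs from the main one in its cells and plates as well as in its classes. Combinations from the same plate were treated as separate sums. In these sums the median of the 8 basal markers was 0.20, against 0.97 without classes, and Col17a1 was at 0.00 (SE 0.43), Krt5 at -0.20 (SE 0.33) and Krt14 at -0.99 (SE 0.41). For the 9 glycolysis enzymes present in both fits the median went from 0.46 to 0.04, and for the 5 interfollicular differentiated markers from -1.56 to -0.06. The 56 Transition Cluster markers went from 0.38 to -0.17. Not every list had a lower median within classes, as it was 0.23 and then 0.25 for 11 hypoxia response genes, and 0.22 and then 0.37 for the 13 genes encoded in mitochondria, all 13 of which were above 0 within classes. The classes were set with the basal and differentiation markers themselves, so the smaller difference of these genes within a class follows in part from the way it was made. Ldha (0.27, SE 0.35), Hif1a (0.36, SE 0.73) and Fam162a (0.37, SE 0.65) were above 0 within classes, each by less than its SE.

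By the rule for named genes, the 6 genes with the lowest p in each direction were taken among those whose average log2 CPM reached 4 and whose order was the same on all 5 plates. Higher in positive cells were Gda, Cip2a, Ppp2r3a, Ddb2, Fam162a and Fem1c, with log2 fold changes of 4.61, 3.04, 1.20, 3.04, 1.53 and 2.68 and edgeR p from 0.00122 to 0.00756. Lower were Krt2, Hspb1, Vcpkmt, Ankib1, Ago4 and Rab25, at -3.56, -1.65, -2.99, -2.84, -3.07 and -1.78, with p from 0.00105 to 0.00526. Krt2 and Hspb1 are described above.

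Many of these 12 rested on few cells. Gda, guanine deaminase, was at 1.16, 207, 207, 11.7 and 203 CPM in the positive and 0.863, 0, 4.68, 0.321 and 17.3 CPM in the negative sums, but 1 cell held 96.6% of its reads on C118 and 98.9% on C119. Cip2a, an inhibitor of the phosphatase PP2A, was at 10.4, 140, 28.0, 75.1 and 99.0 CPM against 0.288, 17.8, 7.49, 38.2 and 3.21 CPM, and 1 cell held 95.2% of the reads of its positive sum on C129. After thinning, a read was found in 15.3% of positive and 2.65% of negative cells for Gda and in 19.4% and 6.62% for Cip2a. Ankib1, a ubiquitin ligase, was at 3.48, 3.51, 20.3, 20.3 and 1.42 CPM against 25.3, 124, 67.9, 49.0 and 30.1 CPM, with a read in 13.9% of positive and 29.1% of negative cells after thinning.

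Fam162a (chromosome 16, 36043761 to 36071594), a mitochondrial protein that Hif1a induces, was at 648, 625, 334, 275 and 70.1 CPM in the positive and 178, 397, 203, 23.5 and 35.9 CPM in the negative sums. It was read in 66.7% of positive and 43.7% of negative cells after thinning, one of the wider bases among the 12 genes. Its positive sums still rested on few cells on 2 plates, as 1 cell held 71.3% of the reads on C118 and 1 cell 83.1% on C129. Ppp2r3a, a regulatory subunit of PP2A, was at 48.7, 825, 399, 645 and 667 CPM against 14.4, 706, 164, 291 and 240 CPM, with reads in 58.3% and 57.6% of cells. Rab25, a GTPase of epithelial recycling endosomes, was at 250, 3.51, 12.2, 29.6 and 13.7 CPM against 706, 56.3, 68.4, 63.0 and 26.6 CPM, with reads in 29.2% and 43.0% of cells.

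**Figure D5:**
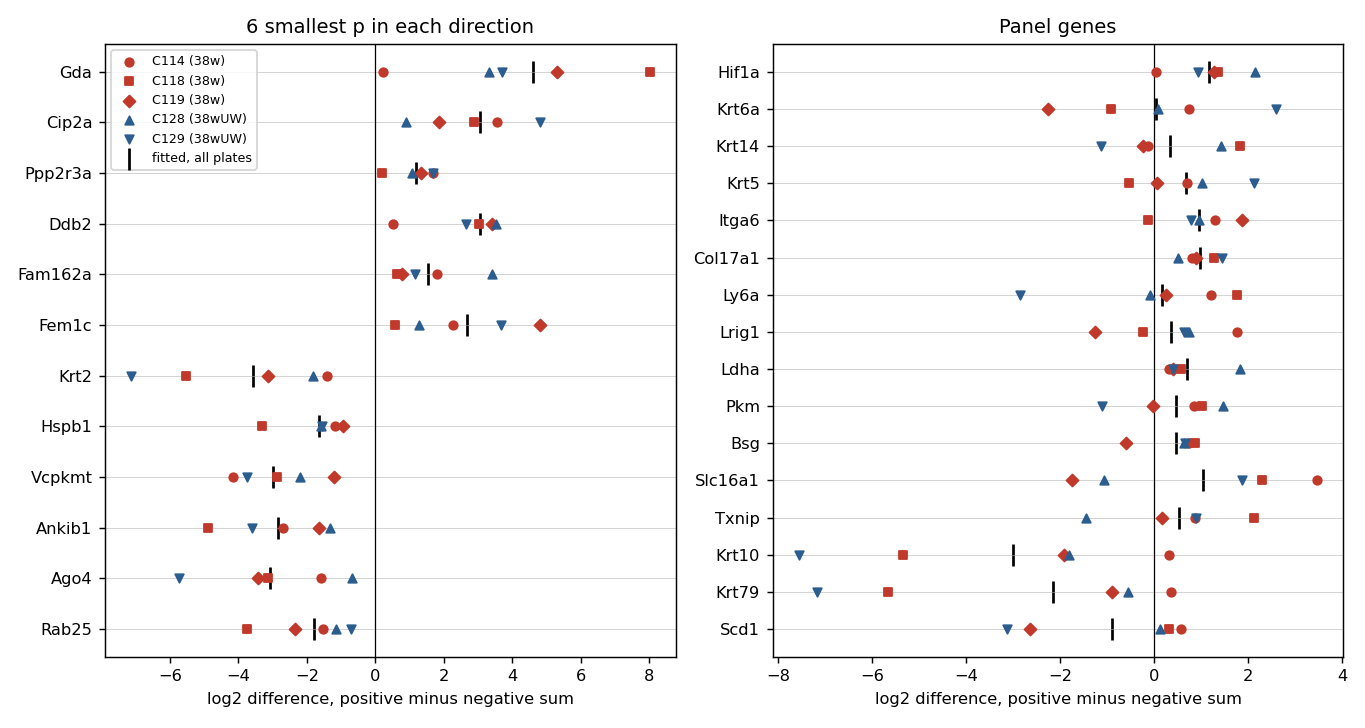
Log2 difference between the positive and the negative sum of each plate for the 6 genes with the lowest p in each direction (left) and the panel genes (right), with the fitted value over all plates as a bar. The 12 genes on the left have all 5 plates on 1 side of 0 because the rule asked for it, and among panel genes only Hif1a, Col17a1 and Ldha do.

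Giving each cell equal weight was added after the data were seen, as sums can follow a few deep cells. On the mean log2(reads + 1) of thinned cells, limma called 0 of 6985 genes, with 233 higher (3.34%) and 201 lower (2.88%) at an unadjusted p under 0.05. Over all 6985 genes 3550 were above 0, with a median of 0.0029. Of the 8 basal markers 7 were higher at an unadjusted p under 0.05, of the 7 interfollicular differentiated markers 4 were lower, of the 76 Transition Cluster markers 20 were higher and 1 lower, and of the 13 genes encoded in mitochondria 5 were higher. Glycolysis enzymes had 10 of 11 above 0, with 1 at an unadjusted p under 0.05, Ldha (0.71, limma p = 0.00855). These lists had the same sign of their median in the sums, unlike the hypoxia response list given above. Actin cytoskeleton genes had 5 of 23 higher and infundibular and duct markers 3 of 9 lower at an unadjusted p under 0.05.

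Whether the difference between the sides itself differed between 38w and 38wUW was tested with an interaction term. edgeR called 0 of 8435 genes (0%, adjusted p under 0.05), with 217 at an unadjusted p under 0.05, and DESeq2 called 29. Of the panel, Krt5 had an interaction of -1.51 (38w minus 38wUW, edgeR p = 0.037), with differences of 0.69, -0.54 and 0.07 on the 38w plates and 1.03 and 2.13 on the 38wUW plates. The lowest and the highest of these, on C118 and C129, each rest on a sum in which 1 cell held most Krt5 reads (93.6% and 75.2%). Ly6a had an interaction of 2.56 (edgeR p = 0.0352), with both groups' plates on opposite sides of 0. Neither passed after adjustment (edgeR adjusted p = 1.0).

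The markers of other cell types that were in the table were low on both sides, except Pecam1. Summed CPM over the leukocyte markers in the table (3 of 11) ran from 0 to 7.02 in positive and from 0.579 to 8.89 in negative sums, and Ptprc was at 0 on 2 positive and 1 negative sums. Fibroblast markers (5 of 6 in the table) ran from 3.69 to 14.0 and from 0.988 to 69.9, melanocyte markers (3 of 5) from 3.49 to 17.6 and from 2.96 to 15.3, and Krt8, the only Merkel cell marker in the table, from 0 to 1.23 and from 0 to 12.9. Of the endothelial markers Kdr stayed under 1 CPM, while Pecam1 was read at 1127 to 8644 CPM in positive and 1333 to 9627 CPM in negative sums, with a log2 fold change of -0.03 (edgeR p = 0.902). Pecam1 had a read in 100% of the cells of both sides, and the source of these reads was not tested.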

How the data were processed

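Single tdTomato-positive tail keratinocytes were profiled with a modified Smart-seq2 protocol (polyadenylated RNA, 25 cycles of PCR, no molecular identifiers, single-end reads of 75 bases). Per the labels and the study's methods, the authors quantified reads with Salmon 0.13.1 against the Ensembl mouse transcriptome (build GRCm38), removed cells with few genes or mostly mitochondrial reads, and worked in R 4.0.3 with Seurat. The deposited table holds estimated counts of 14068 genes in 310 cells, not normalised, of which 3.60% were not whole numbers. All cells were kept. No doublet caller was run on these sorted wells.

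Side, CPM and shares were computed per cell. Estimated counts were summed per plate and side, rounded to whole numbers and tested without Slc2a1 in edgeR 4.0.16 (R 4.3.3; filterByExpr, TMM, quasi-likelihood test, plate and side as terms, Benjamini-Hochberg, threshold 0.05), which tested 8435 genes. Plates pair the sides by design, since both come from the same plate. DESeq2 1.42.0 and limma 3.58.1 were alternatives. The edgeR and limma fits were tested on simulated data, and the DESeq2 fit was not. Shares over plates were compared with exact sign-flip permutation tests, and between groups over replicates. C114 and C118 share RepI, so tests over 5 plates treat them as separate. P-values measure only the spread between these sums, which may in part be technical. Cell properties were medians per side and plate, and reads of a side come from 1 sort, so fewer cells of a type and less RNA per cell cannot be told apart in sums. Gene positions are from GENCODE (GRCm38) and promoters from RefSeq.

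Cells with a name suffix that the labels do not explain (15, of which 2 carry MBULK and may not be single cells) were kept. The others carry IDTILL and all lie on C114. For 11 wells of C114 the labels list a cell with IDTILL and a cell without it. Whether these are the same cell sequenced again was not tested. They were counted as separate cells in the shares, intervals and sums of C114 and RepI. Without the 15 cells edgeR called 0 of 8235 genes. The named genes were a fixed panel, up to 12 genes in each direction with the largest fold change among those past the threshold or, as here, the 6 with the lowest p, and up to 4 members of a list by level, others being marked as named after their values were seen. The members, gene lists and tests were chosen with earlier results of these data known.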

Additional observations from a re-analysis of the deposited data

Results flagged for a closer look

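Among the differences between the sides on the 5 plates, a plate stood apart from the other 4 by Dixon's test for 6 quantities, of 59 examined, and chance gives about 1 in 20. For Ddb2, a DNA damage binding protein, the log2 difference was lowest on C114, at 0.53. For Hspb1 it was lowest on C118, at -3.32, where the positive sum held 4 cells. For Ldha it was highest on C128, at 1.84, and for Bsg lowest on C119, at -0.60. The median log2 difference of Glut1 trafficking and turnover genes was lowest on C118, at -1.63. The share of sebaceous gland cells was higher among positive cells on C118 by 15 percentage points, which is 1 of 4 positive and 1 of 10 negative cells, and lower on the other plates.

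The log2 difference of Ly6a was above 0 on the 3 plates of 38w and below 0 on both plates of 38wUW, with an interaction of 2.56 (edgeR p = 0.0352, adjusted p = 1.0). On C128 its sides were at 40.02 and 40.1 CPM, so the opposite directions rest on C129.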

How the results depend on the processing

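The number of genes that differed between the sides was 0 and stayed 0 under most alternatives. It was 25 with DESeq2 and 5 with no low-count filter, and leaving out a replicate gave 0 to 2 (Klk7 and Klk10, both lower, without RepI). With the plate term left out, that is with no replicate block, it was 0, with 202 genes at an unadjusted p under 0.05 against 314. For the interaction it was 29 with DESeq2 and 10 with no low-count filter, and 0 whichever replicate was left out. The share of positive cells differed between the groups by -4.53 to 12.8 points when a replicate was left out, reversed without RepN.

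Directions of single genes reversed as follows, none of them past the threshold. Within marker classes Krt6a was at -0.57, Krt14 at -0.99, Krt5 at -0.20 and Col17a1 at -0.0032. With thinned cells the sides were chosen again on the thinned reads (93 positive and 184 negative cells), so the cells compared changed as well as their depth. There Krt6a was at -0.020, Ly6a at -0.048, Lrig1 at -0.48 and Slc16a1 at -0.11. Without plate C114 Krt6a was at -0.20, Ly6a at -0.16 and Lrig1 at -0.017, and without C118 Krt14 at -0.035 and Ly6a at -0.26. Without RepI Krt14 was at -0.012, Ly6a at -0.85, Slc16a1 at -0.43 and Txnip at -0.13, and without RepN Krt6a at -0.63. The other ends of the ranges over replicates left out were 0.60 for Krt6a and 1.84 for Slc16a1 (both without RepL), 0.65 for Krt14 and 0.72 for Ly6a (both without RepN), and 1.0 for Txnip (without RepM). In cells of at least 60000 reads Krt14 was at -0.0073 and Slc16a1 at -0.070. Krt14 was at -0.024 without the block, Ly6a at -0.17 from 100 CPM and -0.17 per replicate, and Lrig1 at -0.027 with equal weight per cell. The ribosomal share was at 0.084 points with thinned cells, 0.22 per replicate and 0.11 without RepL, against -0.38 without RepM. The causes were not tested.

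The basal median ran from 0.20 (within classes) to 1.06 (without RepI) over 19 alternatives. Depth limits the choice of sides, as 22 positive cells had under 5 Slc2a1 reads.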

Other observations

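The 54 cells with some Slc2a1 reads but under 50 CPM took no part in the comparison. Of them 16 were basal by their markers (29.6%), against 45.9% of the positive and 19.3% of the negative cells over all plates. Infundibular and duct differentiated cells took 22.2% of them, against 11.8% and 19.3%, and tail scale cells 5.56%, against 3.53% and 15.2%. Their median depth was 80487 reads against 61396 in positive and 60226 in negative cells. It was above both sides on C114, C118 and C129, with 255565 reads on C129, but lay between the sides on C119 (48928) and C128 (44029). The part of depth in these shares was not tested.

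The genes DESeq2 called lower in positive cells included Klk7, a desquamation protease, Cnfn, a protein of the cornified envelope, and Cers4 and Acer1, a ceramide synthase and a ceramidase of the epidermis. Their log2 fold changes in edgeR were -4.96, -4.12, -2.24 and -2.83, with p of 0.00975, 0.00458, 0.00588 and 0.00859. Me1, the malic enzyme that supplies NADPH for fatty acid synthesis, was at -3.81 (edgeR p = 0.0148). These were named after their values were seen.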
